A study of Mus musculus with 23 samples.

Results

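The 10 genes described here encode the enzymes of the urea cycle and of gluconeogenesis that are known as periportal, richest near the portal vein: Nags, Cps1, Otc, Ass1, Asl, Arg1, Gls2, Pcx, Pck1 and Fbp1. They were chosen by name, from textbook knowledge of the pathways, and each probe was assigned to a gene by matching its systematic name to a mouse gene symbol. All 10 had a probe and all 10 passed the filter on dim probes, out of 19898 genes tested. Otc and Ass1 had 2 probes each and the other members 1 probe each. The series measured liver RNA of B6C3F1 females, hybrid mice common in cancer bioassays, that were bought at 5 to 6 weeks of age, kept 5 to a cage and gavaged with furan in corn oil for 21 days. Furan is a small volatile ring compound that forms when food is heated and that the liver oxidises to a reactive product. The groups were 5 control mice given corn oil alone, 4 mice given 1 mg/kg body weight, 5 given 2 mg/kg, 4 given 4 mg/kg and 5 given 8 mg/kg. The livers were collected 4 h after the final gavage, and each dose group is compared with the same 5 controls. Each mouse was hybridised on 1 array, with its liver RNA in the Cy5 channel and a universal mouse reference RNA, common to all arrays, in the Cy3 channel. Values are log2 ratios of Cy5 to Cy3, and a difference is a dose group's mean minus the control mean, on the log2 scale, with its standard error from limma.

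The urea cycle turns ammonia, which is toxic, into urea. Nags makes the activator that Cps1 needs to form carbamoyl phosphate from ammonia, and Otc joins carbamoyl phosphate to ornithine, all inside mitochondria. Ass1, Asl and Arg1 complete the cycle in the cytosol and return ornithine to it. Gls2, the liver form of glutaminase, releases ammonia from glutamine near Cps1. Gluconeogenesis makes glucose from lactate, glycerol and amino acids during fasting: Pcx carboxylates pyruvate to oxaloacetate, Pck1 converts oxaloacetate to phosphoenolpyruvate, and Fbp1 removes a phosphate from fructose bisphosphate. Glucagon, through cAMP, and glucocorticoids are known to raise both sets of enzymes at the level of transcription.

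Windows of 250 bases before the annotated start were taken from RefSeq for build GRCm38.p6. Of the 10 members 6 matched, with 7 windows: Ass1, Fbp1, Nags, Otc, Pck1 and 2 starts of Pcx. Cps1, Asl, Arg1 and Gls2 had no entry. The windows of Pcx are shown because its level fell with dose, that of Otc because its Cy5 signal did, and that of Pck1 because it is the textbook cAMP-controlled gene of the set. Both strands were searched for TGACGTCA (full cAMP response element) and its inner part ACGTCA, TTGCGNAA (C/EBP), CAAAGTCCA (HNF4), AGAACA (glucocorticoid receptor core), AGGTCA (nuclear receptor core), TGTTTAC (forkhead), TATAAA (the core of a TATA box) and GGGCGG (GC box). The CCAAT string and the E-box CACGTG were searched in the same way. Matched letters are in capitals.
Pcx, first start, chr19:4510222-4510471, + strand: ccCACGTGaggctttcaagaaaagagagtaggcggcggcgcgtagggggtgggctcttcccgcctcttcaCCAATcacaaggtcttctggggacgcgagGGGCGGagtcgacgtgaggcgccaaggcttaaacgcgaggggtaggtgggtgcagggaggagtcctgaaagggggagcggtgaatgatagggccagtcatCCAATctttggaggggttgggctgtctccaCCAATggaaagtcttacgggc
Pcx, second start, chr19:4594069-4594318, + strand: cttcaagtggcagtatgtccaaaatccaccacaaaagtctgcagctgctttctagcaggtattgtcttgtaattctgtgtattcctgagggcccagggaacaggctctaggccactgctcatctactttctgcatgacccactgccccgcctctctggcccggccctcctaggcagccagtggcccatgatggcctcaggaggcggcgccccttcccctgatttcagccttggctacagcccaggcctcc
Otc, chrX:10252055-10252304, + strand: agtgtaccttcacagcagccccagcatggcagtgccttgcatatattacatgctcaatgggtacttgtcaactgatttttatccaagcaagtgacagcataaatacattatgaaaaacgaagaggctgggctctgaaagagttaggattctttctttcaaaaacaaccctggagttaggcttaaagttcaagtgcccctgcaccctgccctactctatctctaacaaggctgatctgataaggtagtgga
Pck1, chr2:173152823-173153072, + strand: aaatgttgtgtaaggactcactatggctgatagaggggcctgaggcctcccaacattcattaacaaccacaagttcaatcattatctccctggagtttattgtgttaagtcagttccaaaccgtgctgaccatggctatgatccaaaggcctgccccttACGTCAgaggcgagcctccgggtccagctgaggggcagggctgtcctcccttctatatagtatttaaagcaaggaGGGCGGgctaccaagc
The first Pcx window held 3 CCAAT matches, 1 GC box and 1 E-box. CCAAT occurs in 33.8% of all 32851 windows of this length, the GC box in 32.7% and the E-box in 6.02%. The second Pcx window and the Otc window held 0 matches to any of these strings. The Pck1 window held the inner cAMP element at -91 from the start, a string present in 6.47% of all windows, and 1 GC box at -16. The Nags window held 1 nuclear receptor core, present in 14% of windows, and 2 GC boxes. Ass1 held 1 GC box and 1 E-box, and Fbp1 held 1 GC box and 1 CCAAT match. The full cAMP element, found in 1.55% of all windows, and the C/EBP (0.67%), HNF4 (0.384%), glucocorticoid receptor (16.1%), forkhead (3.17%) and TATA (12.4%) strings were in 0 of the 7 windows. Such a match is a description of the letters and not a measured site.

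The 5 slides on which the arrays were run were numbered 1 to 5 by their barcodes. Controls were on slides 1, 3, 4 and 5, slide 3 held no array of the 4 mg/kg group and slide 5 held none of the 1 mg/kg group, so the slide could be fitted as a block together with dose. All 12 hepatocyte markers, among them Alb and Apoa1, were well above background in Cy5 on all 23 arrays. Pancreatic acinar genes stood apart on 4 arrays: 7 of 18 listed markers were measured, and their mean lay 3.00 to 4.27 above the control mean on 2 mg/kg replicates 1 and 5, 4 mg/kg replicate 1 and 8 mg/kg replicate 5, against at most 0.35 on the other 19 arrays. Neutrophil genes, 5 of 11 measured, stood apart on 2 mg/kg replicate 4, at 2.20 above the control mean against 0.62 for the next array, and the same array had the highest mean of the Kupffer cell markers, at 0.71. All 4 arrays of slide 3 stood apart on hepatocyte genes, as described below.

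Pcx was the member whose ratio fell. Its log2 ratio was 4.24, 4.53, 4.41, 4.32 and 4.28 in the controls, and 4.10, 4.08, 3.97, 3.96 and 4.12 at 8 mg/kg. All 5 arrays of the highest dose lay below all 5 controls, and also below every array at 1 and 2 mg/kg. The 1 mg/kg arrays had 4.44, 4.37, 4.31 and 4.15 and the 2 mg/kg arrays 4.28, 4.31, 4.26, 4.26 and 4.40, both overlapping the controls. The 4 mg/kg arrays had 4.30, 4.23, 4.11 and 4.14, which reached from within the control range into that of the highest dose. The difference at 8 mg/kg was -0.31 ± 0.07, a fall of 1.24-fold (limma, adjusted p = 0.00824; 95% interval -27.1% to -10.9% on the linear scale). In bulk tissue, fewer cells of a type and less RNA per cell cannot be told apart. At 8 mg/kg the median difference was 0.05 over 12 hepatocyte markers, of which 0 passed, and 0.02 over 15 periportal hepatocyte markers, of which 1 passed. It was -0.28 over 10 endothelial markers, of which 2 passed; their mean level, relative to the controls' mean, ran from -0.18 to 0.32 in the controls and from -0.55 to 0.03 at 8 mg/kg. The part of these cells in the Pcx result was not tested.

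Across the members, 1 of 10 passed the threshold (adjusted p under 0.05) at 8 mg/kg, against 8.01% of all genes tested in either direction and 3.76% in the lower direction. Likewise 1 of 10, again Pcx, had its 8 mg/kg arrays all on one side of the controls, against 8.75% of all genes. These shares are close to those of all genes, and the median difference of the 10 members was -0.03, as it was over all genes. For the doses of 1, 2 and 4 mg/kg 0 of 10 passed, where the background was 0%, 0.0101% and 0.0804% of genes. An unadjusted p under 0.05 was given by limma to 701 genes for 1 mg/kg, 1724 for 2 mg/kg and 1770 for 4 mg/kg. Among the members, 0 had such a p for the ratio at 1 or 2 mg/kg and only Pcx at 4 mg/kg.

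The Pcx estimates at the lower doses were smaller and did not pass. The difference was -0.04 ± 0.07 for 1 mg/kg, -0.05 ± 0.07 for 2 mg/kg and -0.16 ± 0.07 for 4 mg/kg, the last with an unadjusted p of 0.0426 and a limma adjusted p of 0.543. The direct comparison of 8 with 4 mg/kg gave -0.15 ± 0.07 (limma, adjusted p = 0.604), where 0.206% of all genes passed and 0 of the 10 members did. A straight line on dose fell by 0.0397 ± 0.0074 per mg/kg (limma, adjusted p = 0.00105). Pcx was the 1 member of 10 with a slope past the threshold, beside 10.4% of all genes, 5.07% of them with a falling slope.

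Within slides the sign of the Pcx difference is fixed by the lack of overlap and adds no support. On the 4 slides that held both a control and an 8 mg/kg array the difference ran from -0.56 to -0.16. With slide as a block it was -0.33 ± 0.06 (limma, adjusted p = 0.00309), beside 11.7% of all genes called in that fit, and the slope was -0.0398 per mg/kg (adjusted p = 3.68e-04), beside 15.2% of genes. Without the 4 arrays rich in pancreatic genes it was -0.33 (adjusted p = 0.0168), and without slide 3 it was -0.25 (adjusted p = 0.0424). The call does rest on how the spot signal was prepared: with the median signals in place of the processed ones it was -0.20 with no background correction (adjusted p = 0.276) and -0.17 with normexp (adjusted p = 0.363), and in the authors' ratio table -0.25 (adjusted p = 0.0515). The cause of that dependence was not tested.

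**Figure D1:**
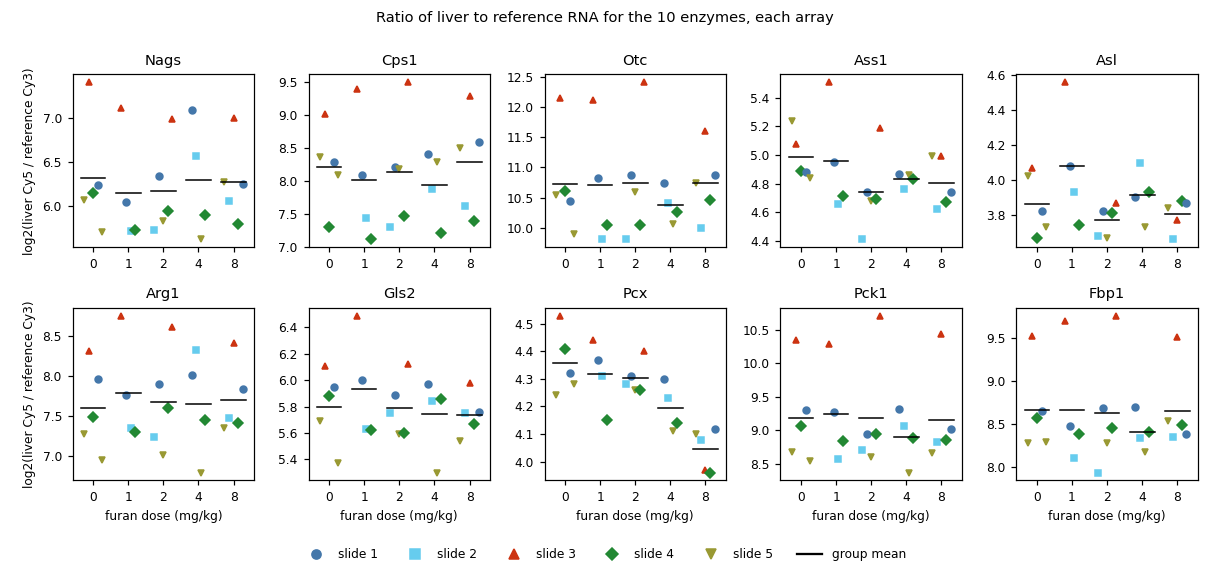
Log2 ratio of liver Cy5 to reference Cy3 for each of the 10 enzymes on each of the 23 arrays, by furan dose in mg/kg; colour and symbol give the slide and the black line the group mean. Pcx steps down to 3.96 to 4.12 at 8 mg/kg, while for Cps1, Otc, Pck1 and Fbp1 the 4 arrays of slide 3 (red triangles) sit above all others.

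Pck1 and Fbp1, the other enzymes particular to gluconeogenesis, did not pass at any dose. Pck1 was 8.55 to 10.34 in the controls with a median of 9.07, and 8.66 to 10.44 at 8 mg/kg with a median of 8.86. Between them, the 1 mg/kg arrays ran from 8.57 to 10.29, the 2 mg/kg arrays from 8.61 to 10.71 and the 4 mg/kg arrays from 8.37 to 9.32. Its groups overlapped almost fully. The difference at 8 mg/kg was -0.03 ± 0.43 (limma, adjusted p = 0.984). Blocking on slide gave -0.08 ± 0.11, with a 95% interval of -0.31 to 0.15. Fbp1 was 8.27 to 9.52 in the controls and 8.35 to 9.51 at 8 mg/kg, so its groups overlapped as well. Its difference was -0.02 ± 0.33 (adjusted p = 0.988), and 0.01 ± 0.10 with the block, with an interval of -0.20 to 0.22.

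Gls2, which feeds ammonia to the cycle, ran from 5.37 to 6.11 in the controls and from 5.54 to 5.98 at 8 mg/kg. Its difference was -0.06 ± 0.17 (limma, adjusted p = 0.905), or -0.11 ± 0.10 when slide was a block (adjusted p = 0.560). It was lower than the controls on 3 of 4 slides, by values of -0.21 to 0.01 over the 4.

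The mitochondrial steps of the urea cycle showed wide spread and no call. Nags, which makes the activator of the cycle, was 5.70 to 7.40 in the controls and 5.79 to 6.99 at 8 mg/kg, a difference of -0.04 ± 0.35 (limma, adjusted p = 0.975). Cps1, the rate-limiting entry step, was 8.35, 9.01, 7.29, 8.28 and 8.09 in the controls and 8.50, 7.62, 9.28, 7.39 and 8.58 at 8 mg/kg, a difference of 0.07 ± 0.46 (adjusted p = 0.965). The 2 Cps1 groups overlapped, but on each of the 4 shared slides the 8 mg/kg array was above its control, by 0.10 to 0.29. With slide as a block the Cps1 standard error shrank to 0.11, and the difference was 0.22, with an unadjusted p of 0.074 and a limma adjusted p of 0.248. The Cps1 slope in that fit was 0.0299 ± 0.0118 per mg/kg (limma, adjusted p = 0.0975), so neither value passed.

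Otc, which makes citrulline, was 10.54, 12.15, 10.61, 10.45 and 9.89 in the controls and 10.75, 11.60, 10.46, 10.88 and, lowest, just under 10 at 8 mg/kg. These groups overlapped, and the difference was 0.01 ± 0.49 (limma, adjusted p = 0.995). With slide as a block it was 0.08 ± 0.20, with an interval of -0.34 to 0.50. The second Otc probe, printed as 10 spots on every array, gave 0.08 ± 0.35, and 0.05 ± 0.14 with the block. The probes correlated at 0.91 over the 23 arrays and at 0.48 after slide means were removed.

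Among the cytosolic steps, Ass1 and Asl varied less and Arg1 did not. Ass1, which joins citrulline to aspartate, was 4.84 to 5.24 in the controls and 4.62 to 4.99 at 8 mg/kg, a difference of -0.18 ± 0.15 (limma, adjusted p = 0.542). The second Ass1 probe gave -0.22 ± 0.17, and the Ass1 difference was negative on 4 of 4 slides, from -0.22 to -0.05. With slide as a block Ass1 was at -0.12 ± 0.10 (adjusted p = 0.472). Asl, which releases arginine, was 3.67 to 4.07 in the controls and 3.66 to 3.88 at 8 mg/kg, a difference of -0.06 ± 0.12 (adjusted p = 0.856). Arg1, which splits arginine into urea and ornithine, was 6.95 to 8.32 in the controls and 7.35 to 8.42 at 8 mg/kg, a difference of 0.10 ± 0.35 (adjusted p = 0.928). On the slides Asl moved by -0.30 to 0.20 and Arg1 by -0.12 to 0.24, with 2 of 4 slides negative for each.

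At the lower doses the 9 members other than Pcx had differences of -0.20 to 0.22 for 1 mg/kg, -0.24 to 0.07 for 2 mg/kg and -0.36 to 0.05 for 4 mg/kg. The lowest limma adjusted p among them was 0.999, 0.686 and 0.847 in that order of dose. At 8 mg/kg the widest interval was that of Otc, whose upper end was 1.02, and with slide as a block the 9 intervals lay within -0.45 to 0.50. A p that misses the threshold does not show that these genes were at the control level. The blocked interval of Fbp1 ended at 0.22 and that of Otc at 0.50.

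**Figure D2:**
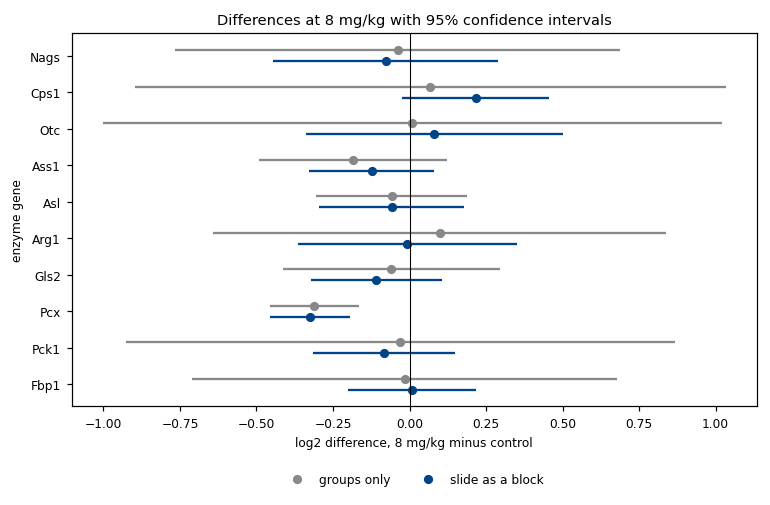
Log2 difference of the 8 mg/kg group from the controls for each enzyme; points are limma estimates, lines are 95% confidence intervals, grey for the fit on groups alone and blue for the fit with slide as a block. Only the Pcx intervals lie wholly below 0 in both fits, and the intervals of Cps1, Otc, Pck1 and Fbp1 narrow most with the block.

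The members differed in how far they spread and in how much of that spread followed the slide. The SD within dose groups was 0.81 for Otc, 0.78 for Cps1, 0.72 for Pck1, 0.59 for Arg1, 0.58 for Nags and 0.56 for Fbp1. It was 0.28 for Gls2, 0.24 for Ass1, 0.19 for Asl and 0.09 for Pcx. Over all 23 arrays, removing slide means took the SD of Otc from 0.75 to 0.29, of Cps1 from 0.71 to 0.19, of Pck1 from 0.66 to 0.16 and of Fbp1 from 0.51 to 0.14. In the same way the SD of Arg1 went from 0.54 to 0.25, of Nags from 0.53 to 0.30, of Gls2 from 0.26 to 0.14 and of Ass1 from 0.24 to 0.16. The SD of Asl went from 0.20 to 0.19, and that of Pcx was 0.15 before and after, so the slide took little or none of the spread of these genes. Cps1, Otc, Pck1 and Fbp1 each had their 4 highest ratios on the 4 arrays of slide 3, which come from 4 different dose groups.

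The excess on slide 3 lay mainly in the reference channel. The mean ratio of the 4 slide 3 arrays was above that of the other 19 by 1.70 for Otc, 1.57 for Pck1, 1.42 for Cps1, 1.23 for Fbp1, 1.07 for Nags and 1.03 for Arg1, on the log2 scale. For Gls2 the excess was 0.46, for Ass1 0.40, for Asl 0.23 and for Pcx 0.11, and over all genes its median was 0.04. With each channel set against its own array median, Cy5 of Pck1 was lower on slide 3 by a difference of -0.27 and its Cy3 by -1.82. Cy3 was lower on slide 3 for all 10 members, by -0.14 (Asl) to -1.82, whereas Cy5 ran from -0.40 (Ass1) to 0.37 (Cps1). In processed units the median Cy3 signal of Pck1 was 203 on slide 3 and 421 to 852 on the other slides, while its Cy5 median was 223500 there and 213000 to 272000 elsewhere. The 12 hepatocyte markers also had higher ratios on slide 3, 12 of 12, by medians of 1.10 in the ratio and -1.51 in Cy3. Unlike the members, they were also lower in Cy5, by a median of -0.69. Markers of some other cells went with them. The median ratio was higher by 0.74 for erythrocytes, 0.52 for Kupffer cells and 0.50 for pancreatic acinar cells, with Cy3 at -0.80, -0.46 and -0.43. For cholangiocytes (-0.07), stellate cells (-0.03) and lymphocytes (-0.08) the ratio was not higher. What lowered the reference signal of these genes on slide 3 was not tested.

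**Figure D3:**
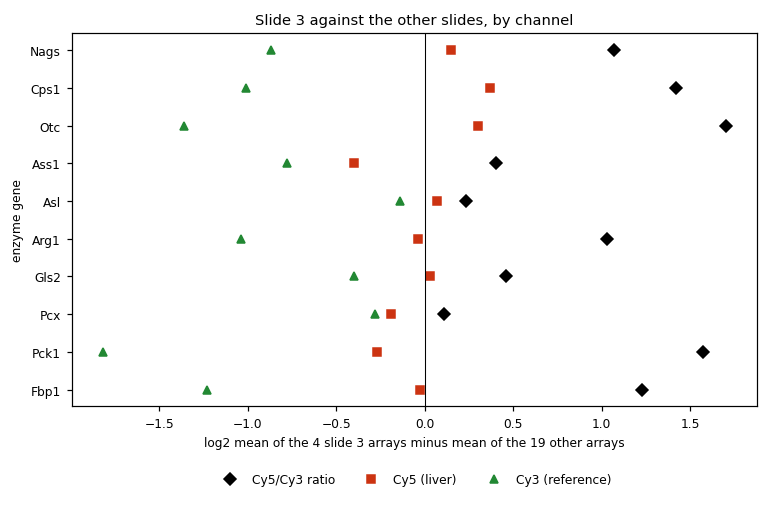
Mean of the 4 slide 3 arrays minus the mean of the 19 other arrays for each enzyme, on the log2 scale, for the loess-normalized ratio (black diamonds), liver Cy5 (red squares) and reference Cy3 (green triangles), each channel relative to its array median. The reference points lie to the left of 0 for all 10 genes, down to -1.82 for Pck1, and the liver points stay between -0.40 and 0.37.

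Because the reference RNA carries little of several of these transcripts, the liver channel was also fitted alone, with quantile normalization between arrays, an alternative chosen after the data had been seen. Otc then fell. Its single-spot probe had a log2 Cy5 signal of 15.92, 16.10, 15.92, 15.80 and 15.91 in the controls and 15.45, 15.43, 15.67, 15.26 and 15.29 at 8 mg/kg. All 5 values at 8 mg/kg lay below all 5 controls, a pattern that 3.28% of all genes showed in Cy5. The 1 mg/kg arrays had 15.65, 15.73, 15.89 and, highest, 16. The 2 mg/kg arrays had 15.87, 15.73, 15.83, 15.21 and 16.11, and the 4 mg/kg arrays 15.70, 15.69, 15.57 and 15.73. The 2 lower doses overlapped the controls, and the difference at 4 mg/kg, -0.26 ± 0.13, did not pass (limma, adjusted p = 0.711). The lowest value, 15.21, came from 2 mg/kg replicate 4, the array rich in neutrophil genes, which was not tested as a source of it.

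The Otc difference in Cy5 at 8 mg/kg was -0.51 ± 0.12 (limma, adjusted p = 0.0151), where 6.82% of all genes passed, and its slope was -0.0604 ± 0.0133 per mg/kg (adjusted p = 0.00428), where 9.63% passed. With slide as a block it was -0.52 ± 0.10 (limma, adjusted p = 0.00214), beside 14.4% of all genes. On the 4 shared slides it ran from -0.66 to -0.43, where the lack of overlap fixes the sign. The 10-spot Otc probe gave 15.03, 15.37, 14.99, 15.10 and 14.83 in the controls and 14.63, 14.67, 14.88, 14.70 and 14.69 at 8 mg/kg, where 1 treated array lay just above the lowest control. Its difference was -0.35 ± 0.11 (adjusted p = 0.0698), -0.39 ± 0.08 with slide as a block (adjusted p = 0.00522), and it was negative on 4 of 4 slides, from -0.48 to -0.29. So the single-spot probe passed in both Cy5 fits and the 10-spot probe with the block alone.

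The Otc estimates in the reference channel pointed in the same direction, but did not pass the threshold. The Cy3 difference at 8 mg/kg, with slide as a block, was -0.51 ± 0.18 for the single-spot probe (limma, unadjusted p = 0.0119, adjusted p = 0.774) and -0.41 ± 0.17 for the 10-spot probe (unadjusted p = 0.0316), although the same reference RNA was on every array. The single-spot probe had a median processed Cy3 signal of 38.5 against 55500 in Cy5, and its Cy3 was well above background on 20 of 23 arrays. The 10-spot probe had a median Cy3 of 180 against 30000 in Cy5 and was above background on 23 of 23. The ratio takes the Cy3 value from the Cy5 value, and in it the Otc difference was 0.01. On the 4 shared slides the Cy3 difference was -0.88 to 0.19 for the single-spot probe, lower on 3. For the 10-spot probe it was -0.61 to -0.3, lower on 4. Cy3 of the single-spot probe overlapped between groups, at 4.37 to 6.49 in the controls and 4.51 to 5.42 at 8 mg/kg. What lay behind these Cy3 estimates was not tested.

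Pcx had a bright signal in both channels, with medians of 98300 in Cy5 and 5840 in Cy3. In Cy5 alone it was 16.51 to 16.88 in the controls and 16.14 to 16.42 at 8 mg/kg, again without overlap. Its difference was -0.28 ± 0.09 (limma, adjusted p = 0.0738), short of the threshold, and -0.33 ± 0.06 with slide as a block (adjusted p = 0.00129). Its slope passed in both Cy5 fits, at -0.0381 (adjusted p = 0.0165) and, with the block, -0.0417 (adjusted p = 1.08e-04) per mg/kg, beside 18.1% of all genes in the latter. The Pcx Cy3 difference at 8 mg/kg with the block was -0.09 ± 0.04 (adjusted p = 0.774). The other 8 members did not pass in Cy5 alone at 8 mg/kg, with or without the block. At the lower doses, in Cy5 without the block, Nags was at 0.40 ± 0.13 for 1 mg/kg (limma, unadjusted p = 0.00672, adjusted p = 0.880). It was at 0.29 ± 0.13 for 4 mg/kg (unadjusted p = 0.0401, adjusted p = 0.636). Ass1 was at -0.29 ± 0.11 for 2 mg/kg (unadjusted p = 0.0207, adjusted p = 0.816).

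**Figure D4:**
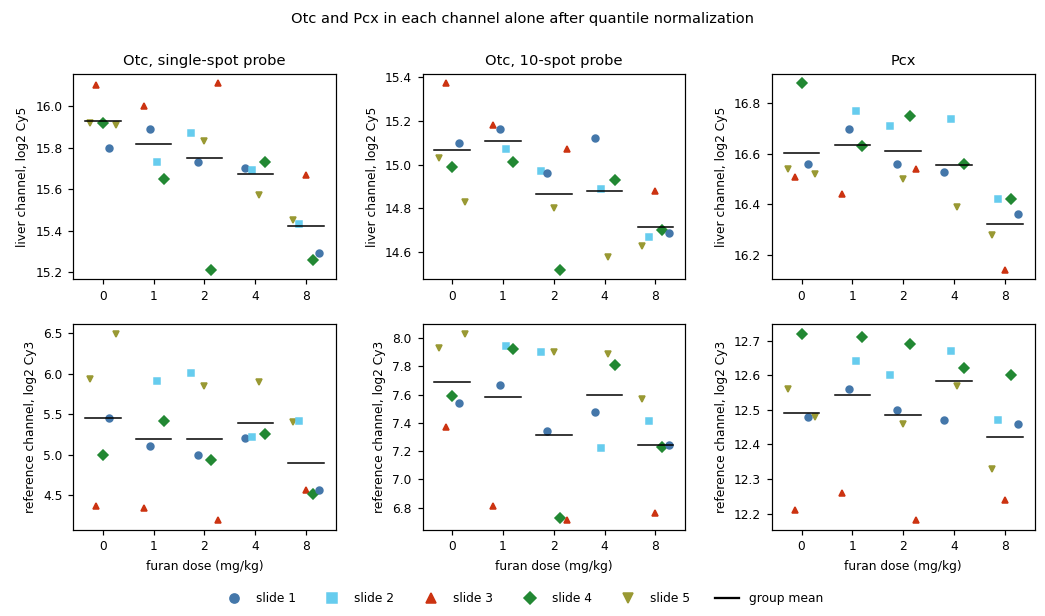
Quantile-normalized log2 signal of both Otc probes and of the Pcx probe on each array by furan dose in mg/kg, liver channel (Cy5) above and reference channel (Cy3) below; colour and symbol give the slide and the black line the group mean. In the liver channel the 8 mg/kg arrays of Otc (single-spot probe, 15.26 to 15.67) and Pcx (16.14 to 16.42) lie below the controls, and in the reference channel the slide 3 arrays lie low.

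Over the 23 arrays the members varied together, Pcx less than the others. The 36 pairs without Pcx had Pearson correlations of 0.43 to 0.96 over the 23 arrays, with a median of 0.76, and the 9 pairs with Pcx had 0.24 to 0.50, with a median of 0.38. The arrays share slides and the reference channel: with slide means removed the medians were 0.47 and 0.15. The ranges were then -0.05 to 0.75 without Pcx and -0.33 to 0.42 with it, so some pairs without Pcx were as low as pairs with it. The genes most like the mean of the 10 centred members were Hpd, Cyp27a1, Rdh16f2, Cyp2c70 and Cyp2c29, with correlations of 0.98 to 0.99. With slide means removed they were Gstk1, Hpd, F12, Alb and Rdh16, with 0.87 to 0.90. Of these 9 genes, 0 passed at 8 mg/kg, with differences of -0.02 (Gstk1) to 0.14 (F12).

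The genes most like Pcx were others. Over the 23 arrays Ccs (the copper chaperone of superoxide dismutase), Vkorc1 (vitamin K epoxide reductase) and Smim1 were nearest, at 0.87, 0.86 and 0.85. With slide means removed the nearest were Ptgds (a prostaglandin D synthase), Tbc1d9b and Adra1b (an adrenergic receptor), at 0.91, 0.90 and 0.89. All 6 were also lower at 8 mg/kg, by limma differences of -0.26 (Ccs) to -0.96 (Smim1), which follows in part from a likeness measured over the same arrays.

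Around the members, 81 measured genes of the same pathways, of 85 listed, were read as 4 groups. At 8 mg/kg 6 of them rose, 3 fell and 72 did not pass, against 4.25% higher and 3.76% lower over all genes, and their median difference was 0.01. With slide as a block 7 rose and 6 fell, against 5.95% higher and 5.74% lower over all genes in that fit. At the lower doses 0 of the 81 passed.

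Among 20 measured genes that supply nitrogen to the cycle or draw from it, 2 rose and 2 fell. With slide as a block 2 rose and 3 fell. The added gene was Glul, at -0.35 ± 0.08 with the block (limma, adjusted p = 0.00650) and -0.34 ± 0.13 without it (adjusted p = 0.140). Odc1, which turns ornithine into putrescine, was -1.35 to -1.07 in the controls and -0.95 to -0.54 at 8 mg/kg, without overlap, a difference of 0.49 ± 0.10 (limma, adjusted p = 0.00419). Its differences at 1, 2 and 4 mg/kg were 0.35, 0.28 and 0.54, with 0.0525 the lowest adjusted p of the 3. Glud1, which frees ammonia from glutamate in mitochondria, was 3.76 to 4.18 in the controls and 4.29 to 4.41 at 8 mg/kg, a difference of 0.32 ± 0.09 (adjusted p = 0.0259). Sirt3, the mitochondrial deacetylase, fell by 0.28 ± 0.07 (adjusted p = 0.0145) from 3.81 to 4.06 down to 3.60 to 3.76, again without overlap. Oat, which turns ornithine into glutamate semialdehyde, fell by 0.46 ± 0.13 (adjusted p = 0.0346), with 3.35 to 3.83 in the controls and 2.91 to 3.42 at 8 mg/kg. On the 4 shared slides Oat moved by -0.66 to 0.07. Of all genes, 8.75% had 8 mg/kg arrays that did not overlap the controls.

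The Glud1, Oat and Sirt3 calls were narrow. Glud1 lost its call when any 1 of 5 arrays was left out (replicates 2 and 3 of the controls, and 3, 4 and 5 of 8 mg/kg), with adjusted p of 0.0522 to 0.0754. Oat lost it for any of 8 arrays (replicates 1, 2, 4 and 5 of the controls, and 1, 2, 3 and 5 of 8 mg/kg), with adjusted p of 0.0508 to 0.0934. Sirt3 kept its call without any single array. Of 18 other settings Glud1 lost its call in 8 (limma, adjusted p of 0.0563 to 0.258), Oat in 9 (0.0580 to 0.214) and Sirt3 in 5 (0.0502 to 0.120). The Glud1 difference was 0.19 with Cy5 alone and slide as a block and 0.25 without the arrays of slide 3, and the lowest Oat difference in size was -0.37 in Cy5 alone.

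Of 23 measured genes around gluconeogenesis, 2 rose and 0 fell. With slide as a block 2 rose and 1 fell, which was Slc25a11 at -0.31 ± 0.09 (limma, adjusted p = 0.0328). Pgam1, a phosphoglycerate mutase that serves glycolysis and gluconeogenesis alike, rose by 0.28 ± 0.07 (limma, adjusted p = 0.0103), from -1.65 to -1.26 in the controls to -1.24 to -1.08. Gk, the glycerol kinase that brings glycerol into the pathway, was 2.18 to 2.72 in the controls and 2.63 to 3.1 at 8 mg/kg, a difference of 0.40 ± 0.12 (adjusted p = 0.0351). Gk lost its call for any of 8 arrays left out (replicates 1, 3, 4 and 5 of both groups), with adjusted p of 0.0529 to 0.1. In 3 of 18 other settings Gk lost its call (0.0656 to 0.0822), and Pgam1 did in 1, with only the 2 groups compared (0.0841). The 14 measured genes of the opposing glycolytic steps had a median of -0.19 and 0 calls.

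Of 24 regulators of the enzymes, 2 rose and 1 fell. Fgf21, a hepatic hormone of fasting and amino acid stress, was 0.35 to 1.47 in the controls and 2.16 to 3.66 at 8 mg/kg, a difference of 2.00 ± 0.44 (limma, adjusted p = 0.00703). Sesn2, a stress-induced sestrin, was -1.09 to -0.25 in the controls and -0.22 to 0.33 at 8 mg/kg, a difference of 0.84 ± 0.16 (adjusted p = 0.00226). Trib3, a pseudokinase that binds Akt, fell by 1.09 ± 0.24 (adjusted p = 0.00763), from -1.50 to -0.90 in the controls to -2.37 to -1.88. All 3 had 8 mg/kg arrays that did not overlap the controls, a pattern of 8.75% of all genes. On the 4 shared slides that pattern fixes the sign. There Fgf21 moved by 1.05 to 3.11, Sesn2 by 0.59 to 1.30 and Trib3 by -1.41 to -0.64. These genes were named for passing on the same arrays, so such values follow in part from that choice. With slide as a block 3 regulators rose and 2 fell. The added genes were Crtc2, at -0.27 ± 0.07 (limma, adjusted p = 0.0249), and Creb1, at 0.81 ± 0.19 (adjusted p = 0.0102). Creb1 was above background in Cy5 on only 10 of 23 arrays.

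**Figure D5:**
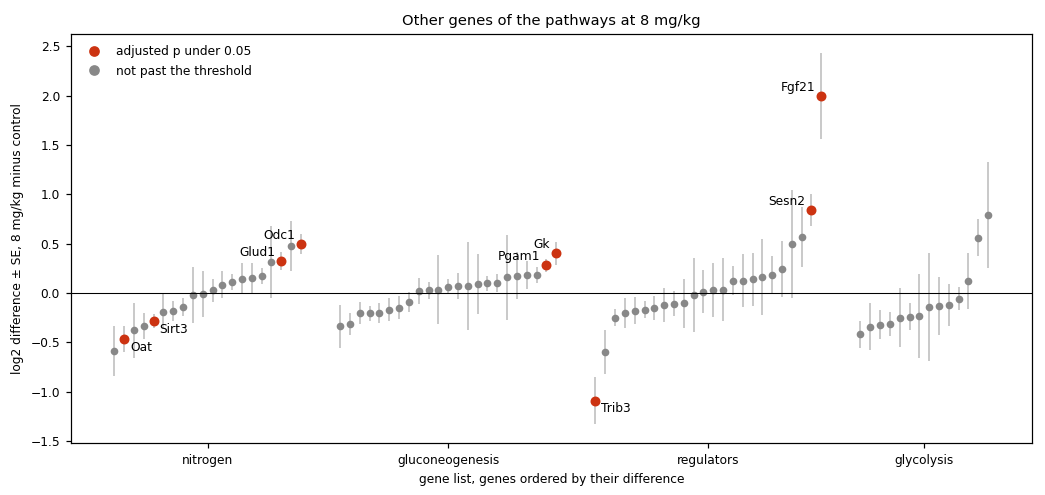
Log2 difference from the controls at 8 mg/kg, with its standard error, for the 81 measured pathway genes in 4 lists, ordered within each list; red points passed an adjusted p of 0.05. The 9 red points run from -1.09 (Trib3) to 2.00 (Fgf21), and 0 of the 14 glycolytic genes are red.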

How the data were processed

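Liver RNA of 23 mice was measured on Agilent SurePrint G3 mouse arrays in 2 colours without a dye swap, per the labels. Per the file headers, the authors extracted 62976 spots per array with Agilent Feature Extraction 10.7.3.1. Per the file headers, the processed signal deposited is an intensity after background subtraction and dye normalisation. Raw spot and background medians, deposited intensities too, served as an alternative. The remaining deposited columns used are 0 or 1 marks, per the file headers. The value table deposited by the authors holds a linear Cy5 to Cy3 ratio with column medians of 0.974 to 0.987, whose log2 followed a loess of median signals (correlations of 0.995 to 0.996). Which correction made that table is not given in the sources used here.

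Log2 of processed Cy5 over Cy3 was normalized by loess within arrays (span 0.3, 4 iterations), with control and marked spots at weight 0. Replicate spots were averaged. Of 55681 probes, 25574 passed the filter: Cy5 well above background on 4 or more arrays of some group. Systematic names were matched to symbols (assembly GRCm38.p6, names only) for 26421 probes. The brightest probe stood for a gene, with at least 3 values per group, which left 19898 genes, and Benjamini-Hochberg adjustment ran over all of them. The main test was limma 3.58.1 in R 4.3.3 on all 23 arrays with group as the only term, two-sided (18 residual and 2.32 prior degrees of freedom). A slope on dose and 8 against 4 mg/kg were further contrasts. Figures were drawn with matplotlib 3.10.9. Between 22006 and 30120 probes per array were above background and 0 spots were saturated. The number of arrays, 4 or 5 per group, limits the precision. In a test on simulated data for the 8 mg/kg comparison over 19898 genes, the share of changed genes recovered was 9.09% at 1.25-fold, 43.5% at 1.5-fold and 69.4% at 2-fold, and 4.6% of calls were false.

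The labels number the mice as replicates and do not say which shared a cage. The series text counts 25 samples, and 23 arrays were analysed here. The members, the lists and the tests were chosen with earlier results of these data known. Genes were named by rule: all 10 members; list genes past the threshold, up to 6 per list; the 5 genes most like the members' mean and the 3 most like Pcx; and marker genes on which an array stands apart. List genes that passed only with slide as a block were named as well. Slide block, other signals, filters, probe choices and left-out arrays were tried as alternatives. Sequences are from RefSeq.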

Additional observations from a re-analysis of the deposited data

Results flagged for a closer look

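Within-group outliers were sought in the 50 groups of 4 or 5 arrays formed by the 10 members and 5 doses, by the gap of the highest or lowest array to its neighbour as a share of the group's range (Dixon's test, where chance gives about 1 in 20). Pck1 on 2 mg/kg replicate 5 had a log2 ratio of 10.71, with the nearest array of its group at 8.95. Pck1 on 8 mg/kg replicate 3 had 10.44, with the nearest at 9.02. Fbp1 on 8 mg/kg replicate 3 had 9.51, with the nearest at 8.53. All 3 values were found on slide 3, whose Cy3 signals for these genes were low.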

How the results depend on the processing

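With 4 or 5 arrays per group and a self-test that recovered few small changes, differences the size of that in Pcx were near the limit of detection, and for the 6 members with a wide slide effect the unblocked fit detects less. The number of members called at 8 mg/kg was 1 in 14 of 18 alternative settings. That member was Pcx, except with Cy5 alone, where it was Otc and Pcx was not called. It was 0 with median signals without background correction, 0 with median signals and normexp, 0 in the deposited value table, and 2 with Cy5 alone and slide as a block. Members with a slope numbered 0 under both median-signal settings and 2 with Cy5 alone, with or without the block. At 1, 2 and 4 mg/kg the number was 0 in all 18 settings and without any 1 array.

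Pcx at 8 mg/kg was -0.20 (limma, adjusted p = 0.276), -0.17 (0.363), -0.25 (0.0515) and -0.28 (0.0738) with median signals uncorrected, median signals with normexp, the deposited table and Cy5 alone; its slopes with the median signals were -0.0266 (adjusted p = 0.135) and -0.0234 (0.185). In the other settings it kept its direction and its call, for example -0.25 (adjusted p = 0.0394) with median centring. Leaving out 1 array at a time gave -0.34 to -0.27 at 8 mg/kg (adjusted p up to 0.0263). Otc at 8 mg/kg turned to -0.51 and -0.52 in Cy5 alone without and with the block. The members had 58 values that did not pass, and refitting them in 41 settings, left-out arrays included, gave 2369 estimates. Of these estimates 4 passed, the Otc difference at 8 mg/kg and the Otc slope in both Cy5 fits. In all, 285 changed sign, among them the Otc difference at 8 mg/kg in both Cy5 fits, where it passed.

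Companion genes called at 8 mg/kg numbered 9, 24 with Cy5 alone and slide as a block, and 6 to 10 without 1 array. Over all genes the count at 8 mg/kg was 1593, and 2454 with slide as a random block, 1013 and 1009 with median signals, 931 in the deposited table, 930 with no filter on dim probes, 1039 with only the 2 groups compared and 2856 with Cy5 alone and the block. Whether replicate numbers pair the mice was not settled. Over 5 control and 8 mg/kg pairs of one number the mean correlation of deviations was 0, with 1 above 0.1. Over all groups, pairs of one number had a mean of 0.04, with 14 of 43 above 0.1. Pairs of different numbers had a mean of -0.01, with 34 of 168 above 0.1. With the replicate block Pcx was -0.31 (adjusted p = 0.0101) and no call among the members changed.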
